A study of Mus musculus with 18 samples.

Results

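The acute phase response is the change in the plasma proteins made by the liver during infection or tissue injury. Interleukin 6, acting through its receptor and the transcription factor STAT3, and interleukin 1, acting through NF-kB and C/EBP factors, raise the transcription of positive acute phase genes in hepatocytes, while albumin and other negative acute phase proteins decline. Serum amyloid A and the orosomucoids lead the response in mice, in which C-reactive protein changes little, and hepcidin links the response to iron through STAT3 and BMP signaling.

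Transcripts of 31 genes of this response were measured in RNA from mouse liver. They were taken by gene symbol from the 55385 genes of the deposited tables, from a list drawn up with earlier results of these data known. The filter on low counts left 15208 genes to test, and each of the 31 was found once and passed it. They comprise secreted proteins (serum amyloid A, orosomucoids, haptoglobin, hemopexin, lipocalin 2, the fibrinogen chains, protease inhibitors, pentraxins, inter-alpha-trypsin inhibitor heavy chains, ceruloplasmin and hepcidin), intracellular metallothioneins, sensors and receptors (Lbp, Cd14, Il6ra, Il1r1), the receptor antagonist Il1rn, the metalloreductase Steap4 and Stat3. None lies on chromosome 16; they are spread over 11 other chromosomes.

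Livers were taken at 17.1 to 18.0 weeks of age from 3 males and 3 females of each genotype, with wild-type C57BL/6J mice as controls for Dp16 mice and for Dp16-2xIFNRs mice (18 livers in all). Dp16 mice carry a duplication of a segment of mouse chromosome 16 and serve as a model of trisomy 21, and in Dp16-2xIFNRs mice the interferon receptor genes within that segment are back at normal dosage while the rest stays duplicated. No treatment is given in the labels for any group, and the values are read here as those of livers without an applied inflammatory stimulus. Each library is a separate liver by its labels, and p-values set a difference against the spread between these livers, taken as independent. A number in the sample description is shared by 11 mice across groups, and the main fit has no term for it.

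Total counts ran from 38236222 to 59923315 per library, and the members took 2.32% to 3.77% of them. As a check of the genotypes, the receptor gene Ifnar1 averaged 33.6 ± 7.05 CPM in Dp16 livers (SD, n = 6). It averaged 22.3 ± 2.32 CPM in wild-type and 23.1 ± 3.15 in Dp16-2xIFNRs livers. CPM stands for counts scaled to a fixed library total after TMM normalization. For Ifnar1 the lowest Dp16 liver (25.98 CPM) lay above every wild-type liver, but below the highest Dp16-2xIFNRs liver (26.9 CPM). Means of Ifnar2, Il10rb and Ifngr2 were also highest in Dp16 livers, with ranges that overlapped those of both other groups. Ifngr2 ran from 20.4 to 39.99 CPM in wild-type, 26.8 to 51.2 in Dp16 and 21.5 to 40.7 in Dp16-2xIFNRs livers. Summed markers of hepatocytes lay between 78571 and 133676 CPM in every library. Dp16 libraries 4 (male) and 5 (female) stood apart, with the lowest and the highest TMM factor (0.803 and 1.34). Library 4 had the highest level of all 18 for 6 members, and library 5 the lowest for 5 members. Both came from mice of 17.1 weeks, as did wild-type library 6. The other Dp16 mice and all Dp16-2xIFNRs mice were 17.7 to 18.0 weeks old. In bulk liver, fewer cells of a type and less RNA per cell cannot be told apart.

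Sequences upstream of the transcription start are shown for 7 members whose values recur in the comparisons: Saa1 and Saa2, neighbours that varied together; Fga and Fgb, a pair of fibrinogen chains that varied together; Hamp, the member with the smallest p in Dp16-2xIFNRs against wild-type; and Mt1 and Mt2, with the largest differences between sexes. They come from RefSeq (GRCm38.p6), read 5′ to 3′ on the gene's strand, as chr7:46742981-46743230 (minus strand, Saa1), chr7:46751583-46751789 (plus, Saa2), chr3:83025903-83026075 (plus, Fga), chr3:83049864-83050113 (minus, Fgb), chr7:30944033-30944279 (minus, Hamp), chr8:94178839-94179081 (plus, Mt1) and chr8:94172368-94172617 (plus, Mt2). Capitals mark C/EBP matches (TTNNGNAA) in Saa1 and Saa2, STAT (TTCNNNGAA) and C/EBP matches in Fga and Fgb, the STAT match in Hamp, and the core of the metal response element (TGCACNC or TGCGCNC) in Mt1 and Mt2, on either strand.
Saa1: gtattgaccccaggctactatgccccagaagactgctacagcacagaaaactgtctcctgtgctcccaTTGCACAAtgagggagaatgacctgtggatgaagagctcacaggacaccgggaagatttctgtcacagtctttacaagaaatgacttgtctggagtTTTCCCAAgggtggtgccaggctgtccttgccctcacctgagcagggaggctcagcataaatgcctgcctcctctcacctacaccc
Saa2: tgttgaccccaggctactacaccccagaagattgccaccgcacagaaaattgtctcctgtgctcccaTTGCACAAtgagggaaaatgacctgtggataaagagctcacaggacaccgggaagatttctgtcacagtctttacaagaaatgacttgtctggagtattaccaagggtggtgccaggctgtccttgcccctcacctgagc
Fga: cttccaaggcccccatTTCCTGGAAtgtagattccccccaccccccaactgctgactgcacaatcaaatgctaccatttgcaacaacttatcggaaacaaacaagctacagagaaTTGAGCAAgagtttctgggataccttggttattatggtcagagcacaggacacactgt
Fgb: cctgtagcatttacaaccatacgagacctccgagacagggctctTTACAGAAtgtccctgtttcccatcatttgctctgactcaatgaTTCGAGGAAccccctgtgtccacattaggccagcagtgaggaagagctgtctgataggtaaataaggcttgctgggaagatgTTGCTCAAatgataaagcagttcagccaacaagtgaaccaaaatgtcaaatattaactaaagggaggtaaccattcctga
Hamp: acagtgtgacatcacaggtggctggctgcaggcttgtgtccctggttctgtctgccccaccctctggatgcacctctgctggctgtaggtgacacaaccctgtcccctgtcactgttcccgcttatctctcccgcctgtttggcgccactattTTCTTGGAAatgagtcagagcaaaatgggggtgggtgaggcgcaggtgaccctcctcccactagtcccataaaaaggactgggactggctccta
Mt1: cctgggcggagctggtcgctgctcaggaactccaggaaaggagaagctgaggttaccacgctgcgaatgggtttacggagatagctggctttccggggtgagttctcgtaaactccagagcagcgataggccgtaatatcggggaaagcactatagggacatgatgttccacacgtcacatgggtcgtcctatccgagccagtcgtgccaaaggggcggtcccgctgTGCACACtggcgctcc
Mt2: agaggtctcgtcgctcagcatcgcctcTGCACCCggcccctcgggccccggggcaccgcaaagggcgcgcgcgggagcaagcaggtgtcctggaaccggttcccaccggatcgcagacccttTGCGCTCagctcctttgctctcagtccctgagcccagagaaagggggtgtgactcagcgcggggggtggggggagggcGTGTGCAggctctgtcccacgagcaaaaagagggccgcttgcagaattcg

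Of the 31 members, 25 had a promoter entry in the RefSeq table. Within the 250 bases before a start, the C/EBP letters stood in 19 of 25 members (76.0%) and in 36.8% of all 32817 promoters, and the STAT letters in 6 members (24.0%: Apcs, Fga, Fgb, Hamp, Itih4 and Steap4) and in 7.01% of all promoters. The type II interleukin 6 element (CTGGGAA or CTGGAAA) stood in 8 members (32.0%, against 15.0% of all), and NF-kB letters (GGGNN directly followed by TTNCC) in Il1rn, Serpina3n and Steap4 (12.0%, against 4.11%). The metal response core stood in 4 members (Fgg, Mt1, Mt2 and Orm3; 16.0%, against 21.4%), and Mt2 held 3 of them, a number reached by 1.26% of all promoters. A member with several listed starts was counted if any of its windows held the letters, both strands were searched, motifs may overlap, and a match describes letters, not binding. The windows follow RefSeq starts, which can differ from the GENCODE positions given below. The Mt2 window ends at 94172617, before the GENCODE start of Mt2 at 94172664. Letters outside the windows, including those of Mt1 and Mt2, were not counted. Matches and identities were counted over the full windows of 250 bases. The sequences printed above for Saa2, Fga, Hamp and Mt1 are shorter, because they were cut at the GENCODE start. The full windows of these genes thus include bases that GENCODE counts as transcript. Over the full windows, Saa1 and Saa2 were 94.8% identical (238 of 251 aligned positions), and Mt1 and Mt2 45.1%.

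Per gene length, in the authors' RPKM (read counts scaled to gene length and to the total count), the members spanned from 4497 ± 1508 for Hamp, which encodes the iron hormone hepcidin, to 1.15 ± 0.539 for Il1rn, the secreted antagonist of the interleukin 1 receptor (mean ± SD over 18 libraries). Hemopexin (Hpx, 4075 ± 1695 RPKM) and haptoglobin (Hp, 2243 ± 719 RPKM), which bind free haem and haemoglobin in plasma, came next. The fibrinogen chains that form the clot followed, with Fgg at 1992 ± 276, Fga at 1592 ± 346 and Fgb at 1251 ± 264 RPKM, and Orm1, the main orosomucoid, a plasma carrier protein, stood between them at 1383 ± 401. These neighbours overlapped in their ranges.

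A middle band held secreted proteins of lower level: Itih4 at 486 ± 171 RPKM, Fgl1 (fibrinogen-like 1) at 310 ± 124, the serine protease inhibitor Serpina3m at 252 ± 99.5, Itih3 at 237 ± 71.3, C-reactive protein (Crp) at 189 ± 30.5, the copper oxidase ceruloplasmin (Cp) at 165 ± 44.2, Saa1 at 161 ± 161, Serpina3n at 148 ± 38.5 and serum amyloid P (Apcs) at 136 ± 52.2. Mt1 averaged 89.9 ± 141 RPKM, Saa4, the constitutive serum amyloid A, 78.8 ± 20.6, Saa2 69.3 ± 68.2 and Mt2 66.2 ± 108. Below them stood Orm2 (30.99 ± 13.9 RPKM), Steap4 (26.9 ± 7.23) and Lbp (22.2 ± 8.91), the plasma protein that hands lipopolysaccharide to CD14. The lowest band held Stat3 (9.64 ± 4.51 RPKM), Lcn2 (9.50 ± 6.36), an iron-siderophore carrier also made by neutrophils, Orm3 (4.73 ± 5.31), Saa3 (2.70 ± 2.38), Cd14 (2.42 ± 0.970), Il6ra (1.98 ± 1.55) and Il1r1 (1.96 ± 0.922).

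Members differed widely in how far they varied between livers. The ratio of the highest to the lowest library was 1.93 for Cp, 1.96 for Fgg, 2.11 for Fga and 2.14 for Fgb and Crp, but 16.7 for Saa2, 17.8 for Saa3, 21.5 for Saa1, 190 for Mt1 and 243 for Mt2, in CPM. Orm3 had 0 counts in 2 libraries (Dp16 2 and Dp16-2xIFNRs 1) and up to 642 in others. The sources used here do not say how reads shared by the near-identical Saa1 and Saa2, the orosomucoids, the Serpina3 genes or the metallothioneins were counted, so the split between such neighbours is uncertain.

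**Figure D1:**
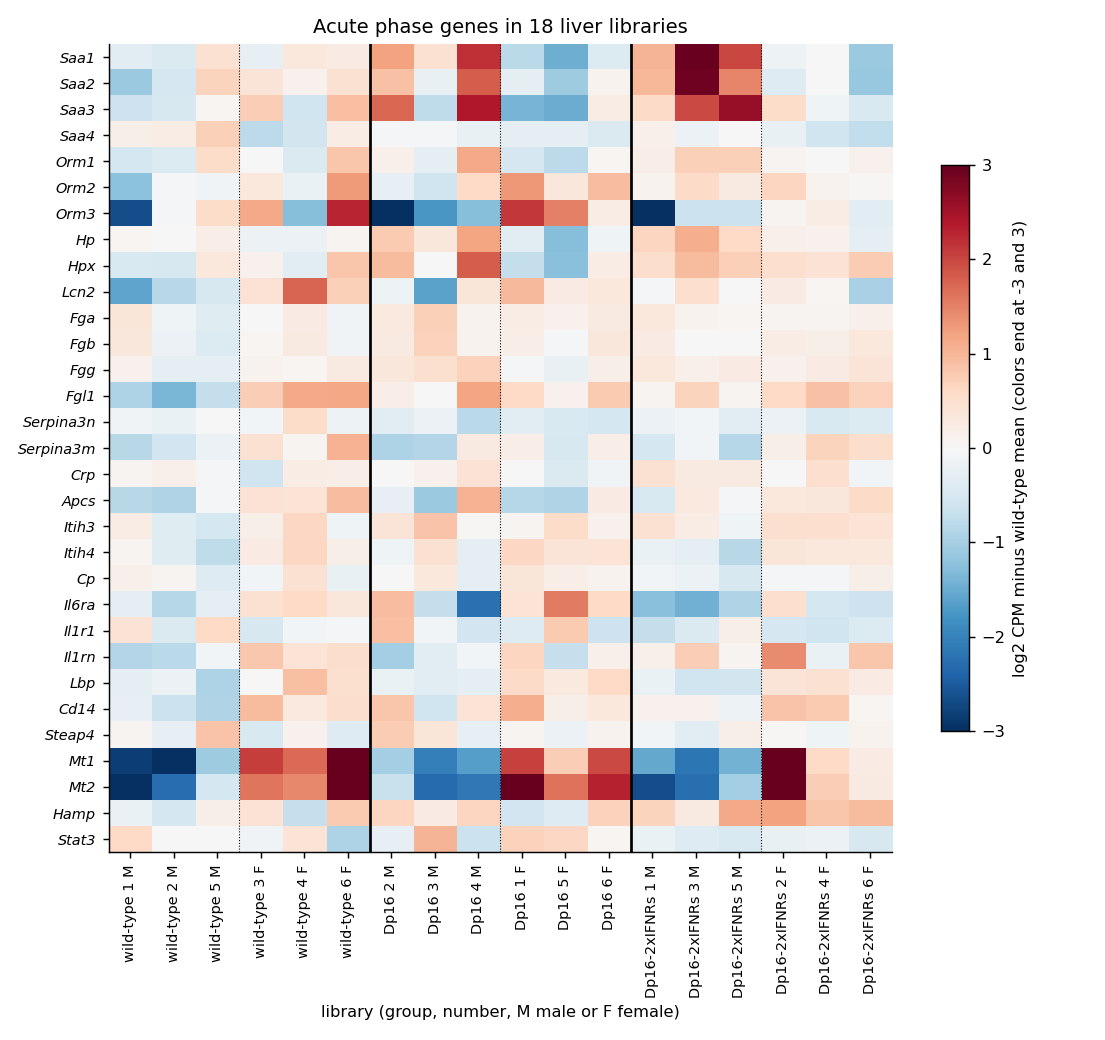
Level of each of the 31 members in each of the 18 livers, as log2 CPM less the mean of the 6 wild-type livers, with libraries in columns by genotype and sex and members in rows. The metallothioneins Mt1 and Mt2 separate female from male livers in each genotype, and the highest livers for Saa1, Saa2 and Saa3 are males of the Dp16 and Dp16-2xIFNRs groups.

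Dp16 livers were compared with wild-type livers to ask whether acute phase transcripts differ when the segment and its interferon receptors are duplicated. No member passed the test (0 of 31, edgeR adjusted p under 0.05, against 0.0395% of all genes, 6 of 15208, with 0.0197% higher and 0.0197% lower). At an unadjusted p under 0.05 the edgeR fit held 1 member, Serpina3n, against 4.87% of all genes, and DESeq2 and limma-voom called 0 members as well. Members lay above wild-type in 21 cases and below in 10, where 51.4% of all genes lay above, with a median log2 fold change of 0.12 (0.01 over all genes tested). That median was 0.41 in males alone and -0.16 in females alone, and it ran from 0.05 to 0.23 with 1 library left out (lowest without Dp16 2, highest without wild-type 6). No member had groups that did not overlap (0.217% of all genes).

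Serpina3n (ENSMUSG00000021091.8, chromosome 12, positions 104406729 to 104414329 of GRCm38, plus strand), a secreted inhibitor of serine proteases, ran from 304 over a median of 329 to 514 CPM in wild-type livers and from 199.8 over 267 to 308 CPM in Dp16 livers. All Dp16 livers but the highest lay below every wild-type liver, and wild-type library 4 at 514 CPM stood far above the other 5. The difference was -0.45 on the log2 scale (SE 0.152, 95% interval -0.77 to -0.13, edgeR adjusted p = 0.65) and -0.31 without wild-type library 4.

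The 3 fibrinogen chains, which lie side by side on chromosome 3 between positions 83007724 and 83049863, stood slightly higher in Dp16 livers, with overlapping groups. Fga ran from 3297 over a median of 4076 to 5445 CPM in wild-type, from 4558 over 5029 to 6957 in Dp16 and from 4435 over 4552 to 5315 in Dp16-2xIFNRs livers. The Fga difference between Dp16 and wild-type was 0.28 (log2, SE 0.146, 95% interval -0.03 to 0.58, edgeR adjusted p = 0.999). Fgb had 0.26 (SE 0.155, 95% interval -0.07 to 0.58) and Fgg 0.25 (SE 0.157, 95% interval -0.08 to 0.58), both with an edgeR adjusted p of 0.999. In females alone the differences were 0.15 for Fga, 0.075 for Fgb and -0.16 for Fgg, and in males alone 0.41, 0.44 and 0.65. Without Dp16 library 3 Fga had 0.18 and Fgb 0.15, and without Dp16 library 4 Fgg had 0.16.

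Itih3, a heavy chain that is linked to hyaluronan and bikunin in plasma and matrix, ran from 404 over 595 to 891 CPM in wild-type and from 599 over 699 to 1056 CPM in Dp16 livers. The groups overlapped, with a log2 difference of 0.34 (SE 0.193, 95% interval -0.06 to 0.74, edgeR adjusted p = 0.999). It was 0.0099 in females alone, 0.67 in males alone and 0.19 without Dp16 library 3. Cd14, the co-receptor for lipopolysaccharide on macrophages, ran from 1.66 over 3.26 to 6.08 CPM in wild-type and from 2.04 over 4.06 to 6.72 CPM in Dp16 livers. Its log2 difference was 0.43 (SE 0.274, 95% interval -0.15 to 1.00, edgeR adjusted p = 0.999) and -0.04 in females alone, 0.93 in males alone and 0.23 without Dp16 library 2, and the summed level of 10 Kupffer cell markers, among them Clec4f and Vsig4, ran from 379 to 766 CPM in wild-type and from 371 to 540 CPM in Dp16 livers.

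The remaining members lay between -0.66 (Orm3) and 0.46 (Fgl1) on the log2 scale in this comparison. Mean levels in wild-type and Dp16 livers were 59.0 ± 15.5 and 95.1 ± 92.0 CPM for Saa1, 30.997 ± 12.2 and 40.9 ± 32.0 for Saa2, 4.56 ± 2.25 and 7.68 ± 8.47 for Saa3, and 190.1 ± 69.0 and 154 ± 15.4 for Saa4 (SD, n = 6). Orm1 averaged 1039 ± 437 and 1043 ± 570 CPM, Orm2 21.5 ± 12.7 and 27.1 ± 12.6, and Orm3 4.54 ± 4.71 and 4.12 ± 4.74. For the scavengers the means were 2590 ± 274 and 3162 ± 1725 CPM for Hp, 4954 ± 1932 and 6733 ± 5357 for Hpx, and 9.74 ± 8.20 and 8.42 ± 3.91 for Lcn2. The larger SD of the Dp16 group for Saa1, Saa2, Saa3, Hp and Hpx came with higher levels on average in its male than in its female livers, described further on. The sexes of the Dp16 group did not overlap for Saa1 and Hp, but overlapped for Saa2, Saa3 and Hpx. They also did not overlap for Saa4, Orm3, Fgg, Lbp, Mt1 and Mt2. The share of all genes whose sexes did not overlap in Dp16 is not given here. The Saa4 SD was smaller in Dp16.

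Among the other secreted members, Fgl1 averaged 317 ± 215 CPM in wild-type and 365 ± 123 in Dp16 livers, Serpina3m 472 ± 234 and 377 ± 137, Crp 305 ± 56.8 and 304 ± 59.6, Apcs 140.5 ± 66.5 and 119 ± 77.4, Itih4 1612 ± 513 and 1872 ± 434, Cp 941 ± 199.8 and 1015 ± 160.0, and Hamp 1460.0 ± 580.2 and 1671 ± 576. Lbp averaged 72.7 ± 32.1 and 75.2 ± 22.2 CPM, Steap4 84.2 ± 32.0 and 91.2 ± 24.9, Mt1 124 ± 164 and 69.9 ± 70.5, and Mt2 29.3 ± 36.8 and 34.0 ± 38.7. None of these genes passed the test.

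**Figure D2:**
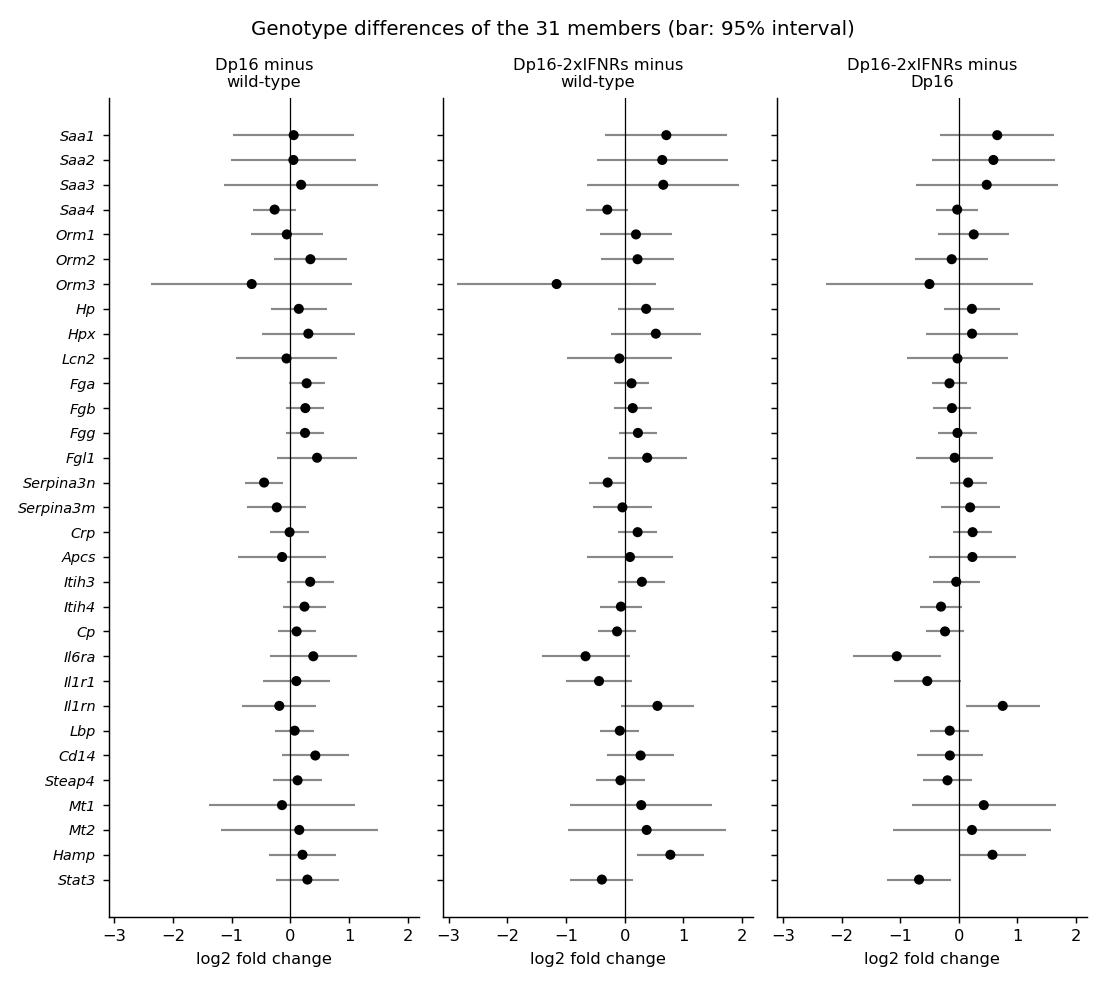
Log2 fold change of each of the 31 members in the 3 genotype comparisons (panels), with points for the edgeR estimate, bars for the 95% interval, and 6 livers per group. No member had an adjusted p under 0.05 in any panel; the largest shifts in Dp16-2xIFNRs against wild-type were Hamp at 0.78 above and Orm3 at -1.16 below.

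Dp16-2xIFNRs livers were compared with wild-type livers to ask which differences accompany the segment when the interferon receptors are at normal dosage. No member passed (0 of 31, edgeR, against 0.0986% of all genes, 15 of 15208, with 0.0723% higher and 0.0263% lower), and 1 member, Hamp, had an unadjusted p under 0.05 (8.66% of all genes). DESeq2 and limma-voom also called 0 members. Members lay above wild-type in 19 cases and below in 12 (47.4% of all genes lay above), with a median log2 fold change of 0.19 (-0.02 over all genes), and no member had groups that did not overlap (0.855% of all genes). The median was 0.36 in males alone, -0.11 in females alone and 0.09 to 0.27 with 1 library left out (lowest without wild-type 2, highest without wild-type 6).

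Hamp (ENSMUSG00000050440.8, chromosome 7, positions 30942368 to 30944032, minus strand), whose window holds the STAT letters shown above, ran from 845 over a median of 1372.0 to 2363 CPM in wild-type, from 911 over 1870.2 to 2192 CPM in Dp16 and from 1653 over 2533 to 3132 CPM in Dp16-2xIFNRs livers. The Dp16-2xIFNRs livers were the highest on average, and 4 of 6 lay above every wild-type liver. Against wild-type the log2 difference was 0.78 (1.72-fold, SE 0.272, 95% interval 0.21 to 1.35, edgeR adjusted p = 0.43). It was similar in males alone (0.89) and in females alone (0.69).

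Il1rn ran from 1.42 over 2.99 to 4.64 CPM in wild-type and from 2.29 over 3.66 to 7.08 CPM in Dp16-2xIFNRs livers, with overlapping groups (log2 0.56, SE 0.300, 95% interval -0.07 to 1.19, edgeR adjusted p = 0.612). Hp ran from 2281 over 2619 to 2981 CPM in wild-type and from 2097 over 3394 to 5499 CPM in Dp16-2xIFNRs livers. Its groups overlapped at the low end (log2 0.37, SE 0.226, 95% interval -0.11 to 0.84, edgeR adjusted p = 0.644), with 0.71 in males alone and 0.08 in females alone.

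Lower on average in Dp16-2xIFNRs than in wild-type livers, without passing the test, were Il6ra, the ligand-binding subunit of the interleukin 6 receptor (log2 -0.67, SE 0.359, edgeR adjusted p = 0.613), Saa4 (log2 -0.30, SE 0.173, edgeR adjusted p = 0.632) and Serpina3n (log2 -0.29, SE 0.152, edgeR adjusted p = 0.61). Saa4 ran from 103 over 206 to 293 CPM in wild-type and from 108 over 157 to 200.01 CPM in Dp16-2xIFNRs livers, and Serpina3n from 255 over 294 to 331 CPM in the latter. Both overlapped with wild-type. Without wild-type library 4 the Serpina3n difference was -0.15, and it was -0.08 in males alone and -0.49 in females alone. The Saa4 difference was -0.18 without wild-type library 6.

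Mean levels of the other members in Dp16-2xIFNRs livers were 155 ± 161 CPM for Saa1, 69.5 ± 76.6 for Saa2, 10.2 ± 9.01 for Saa3, 1228 ± 283 for Orm1, 23.3 ± 4.38 for Orm2, 1.92 ± 1.11 for Orm3, 7383 ± 991 for Hpx and 7.45 ± 2.21 for Lcn2 (SD, n = 6). Fgb averaged 4742 ± 418 CPM, Fgg 4377 ± 299.9, Fgl1 363 ± 79.8, Serpina3m 453 ± 176, Crp 356 ± 56.6, Apcs 146 ± 33.4, Itih3 737 ± 113, Itih4 1551 ± 453 and Cp 864 ± 126. Cd14 averaged 4.00 ± 1.21 CPM, Lbp 67.9 ± 21.3, Steap4 78.7 ± 9.69, Mt1 143 ± 283 and Mt2 52.1 ± 107. None of these passed the test against wild-type.

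Dp16-2xIFNRs and Dp16 livers differ by the dosage of the interferon receptors. No member passed in edgeR (0 of 31; 0% of all genes, 0 of 15208), limma-voom called 0 genes and DESeq2 called 7 genes, none of them a member. At an unadjusted p under 0.05 stood 4 members (9.32% of all genes), with 2 lower (Il6ra, Stat3) and 2 higher (Il1rn, Hamp). The median log2 fold change was -0.02 for the members and -0.02 for all genes, and no member had groups that did not overlap (0.158% of all genes).

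Il6ra and Stat3 had the smallest p-values of the members here, followed by Il1rn, Hamp and Il1r1. Il6ra ran from 3.25 over 22.0 to 45.3 CPM in Dp16 livers and from 5.61 over 9.11 to 21.9 CPM in Dp16-2xIFNRs livers. The Dp16 group held both extremes, with library 4 lowest and library 5 highest, and spanned the other group entirely. The log2 difference was -1.06 (SE 0.3605, 95% interval -1.81 to -0.30, edgeR adjusted p = 0.532), and leaving out single libraries moved it between -1.27 and -0.64.

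Stat3, the transcription factor that carries the interleukin 6 signal to the nucleus, ran from 35.6 over 71.7 to 113 CPM in Dp16 livers and from 39.6 over 45.1 to 49.3 CPM in Dp16-2xIFNRs livers, a narrow range inside the wide one. The log2 difference was -0.68 (SE 0.258, 95% interval -1.22 to -0.14, edgeR adjusted p = 0.532). Il1r1, the signaling receptor of interleukin 1, averaged 13.4 ± 6.66 CPM in Dp16, 9.28 ± 2.25 in Dp16-2xIFNRs and 12.6 ± 3.96 in wild-type livers (SD, n = 6), with a log2 difference of -0.54 between the Dp16-2xIFNRs and Dp16 groups (SE 0.273, edgeR adjusted p = 0.542), at -0.29 without Dp16 library 5. Wild-type livers lay at 16.3 ± 5.77 CPM for Il6ra and 58.4 ± 19.0 CPM for Stat3.

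Il1rn ran from 1.28 over 2.30 to 4.13 CPM in Dp16 livers, below the values given for Dp16-2xIFNRs on average and overlapping with them (log2 0.75, SE 0.3004, 95% interval 0.12 to 1.38, edgeR adjusted p = 0.532). Hamp had a log2 difference of 0.57 (SE 0.273, 95% interval 0.0041 to 1.15, edgeR adjusted p = 0.532), at 0.21 in males alone and 0.98 in females alone. Itih4 had one of -0.30 (SE 0.173, 95% interval -0.66 to 0.06, edgeR adjusted p = 0.576), at -0.18 without Dp16 library 3, -0.46 in males alone and -0.15 in females alone. The comparisons share groups: those against wild-type share the 6 wild-type livers, and each other group also enters 2 comparisons.

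Sex gave the differences that passed. Over all 3 groups, 9 of 31 members were called between female and male livers (edgeR adjusted p under 0.05 over 15208 genes), 6 higher and 3 lower in females, against 6.56% of all genes (998), with 3.16% higher and 3.41% lower. At an unadjusted p under 0.05 stood 17 of 31 members, against 18.8% of all genes. Members lay above 0 in 18 cases (52.4% of all genes), and their median log2 fold change was 0.07 (0.02 over all genes), from 0.0066 without wild-type library 2 to 0.17 without Dp16 library 1. Between all 9 females and all 9 males, Lbp, Mt1 and Mt2 did not overlap (1.87% of all genes), and the same 3 did not overlap within each of the 3 groups in the same direction (2.97% of all genes).

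The metallothioneins, small cysteine-rich proteins that bind zinc and copper, rose most in females. Mt1 (ENSMUSG00000031765.8, chromosome 8, positions 94179082 to 94180327) measured 3.79, 5.41 and 18.5 CPM in wild-type males and 125, 162 and 429 CPM in wild-type females. In Dp16 livers it measured 9.27, 12.3 and 19.1 CPM in males and 64.2, 153 and 161 CPM in females, and in Dp16-2xIFNRs livers 8.52, 13.4 and 14.5 CPM in males and 45.9, 58.6 and 719.7 CPM in females. Every female liver lay above every male liver, and Dp16-2xIFNRs library 2 stood far above the rest.

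Mt1 was 17.7-fold higher in females (log2 4.15, SE 0.543, 95% interval 3.01 to 5.28, edgeR adjusted p = 3.16e-05, higher in 9 of 9 females than in any male). Mt2 (ENSMUSG00000031762.7, chromosome 8, positions 94172664 to 94173568), its neighbour, ran from 1.11 over 2.36 to 7.97 CPM in the 9 males and from 13.8 over 35.4 to 269.6 CPM in the 9 females. It was 19.2-fold higher in females (log2 4.26, SE 0.592, 95% interval 3.02 to 5.50, edgeR adjusted p = 6.33e-05). Without Dp16-2xIFNRs library 2 the folds were 11.0 for Mt1 and 11.4 for Mt2, and both stayed called.

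Lbp (ENSMUSG00000016024.9, chromosome 2, positions 158306493 to 158332852) ran from 35.2 over 55.7 to 59.5 CPM in males and from 66.3 over 91.9 to 126 CPM in females. The lowest female lay above the highest male. It was 1.78-fold higher in females (log2 0.83, SE 0.131, 95% interval 0.56 to 1.10, edgeR adjusted p = 0.000265), and the call held in each of 18 fits with 1 library left out.

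Itih4 ran from 864 over 1286 to 2105 CPM in males and from 1739 over 1970.3 to 2382 CPM in females, and all males but the highest lay below every female. It was 1.53-fold higher in females (log2 0.61, SE 0.141, edgeR adjusted p = 0.0106). Serpina3m ran from 227 over 287 to 514 CPM in males and from 306 over 494 to 876 CPM in females, overlapping in the middle, and was 1.75-fold higher (log2 0.81, SE 0.198, edgeR adjusted p = 0.0166); with a replicate block it did not pass (log2 0.57, edgeR adjusted p = 0.0896).

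Il6ra was 2.03-fold higher in females (log2 1.02, SE 0.294, edgeR adjusted p = 0.0421), from 3.25 over 8.53 to 29.3 CPM in males to 9.94 over 21.0 to 45.3 CPM in females. The sexes overlapped, mostly through Dp16 library 2, the male at 29.3 CPM. The call was lost in 12 of 18 fits that left out 1 library, with an edgeR adjusted p of up to 0.103. Those libraries were wild-type 1 to 5, Dp16-2xIFNRs 1, 2, 3 and 5, and Dp16 3, 5 and 6.

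Over all 3 groups, Hp, Saa1 and Saa4 were lower in females. Hp (ENSMUSG00000031722.10, chromosome 8, positions 109575128 to 109579172) ran from 2546 over 3916 to 5811 CPM in males and from 1068 over 2292 to 2872 CPM in females. Its fold was 0.593 (log2 -0.75, SE 0.187, 95% interval -1.14 to -0.36, edgeR adjusted p = 0.0177), and the call held in each of 18 fits with 1 library left out. Females and males overlapped only between 2546 and 2872 CPM. In wild-type livers, where the sexes overlapped, Hp measured 2546, 2692 and 2981 CPM in males and 2281, 2292 and 2750 CPM in females. In Dp16 livers it measured 3278, 4414 and 5811 CPM in males and 1068, 2045 and 2357 CPM in females. In Dp16-2xIFNRs livers it measured 3916, 4005 and 5499 CPM in males and 2097, 2812 and 2872 CPM in females.

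Saa1 (ENSMUSG00000074115.5, chromosome 7, positions 46740497 to 46742980) ran from 42.7 over 117 to 447 CPM in males and from 20.8 over 48.1 to 71.8 CPM in females, a fold of 0.328 (log2 -1.61, SE 0.419, 95% interval -2.48 to -0.73, edgeR adjusted p = 0.02396). The call was lost without Dp16-2xIFNRs library 2, 4 or 6 or Dp16 library 1 or 5, at an edgeR adjusted p of up to 0.0617, and without Dp16 libraries 4 and 5 together (0.0783). Wild-type livers did not share this order for Saa1, with 42.7, 45.1 and 78.2 CPM in males and 48.1, 68.2 and 71.8 CPM in females. Saa4, named here after its values were seen, had a fold of 0.718 (log2 -0.48, SE 0.142, edgeR adjusted p = 0.0488), with 103 over 132 to 208.7 CPM in females and 154 over 180.2 to 293 CPM in males. Its call was kept in 3 of 18 fits that left out 1 library (those without wild-type 6, Dp16-2xIFNRs 2 or Dp16 4), and its adjusted p reached 0.109 in the other 15.

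**Figure D3:**
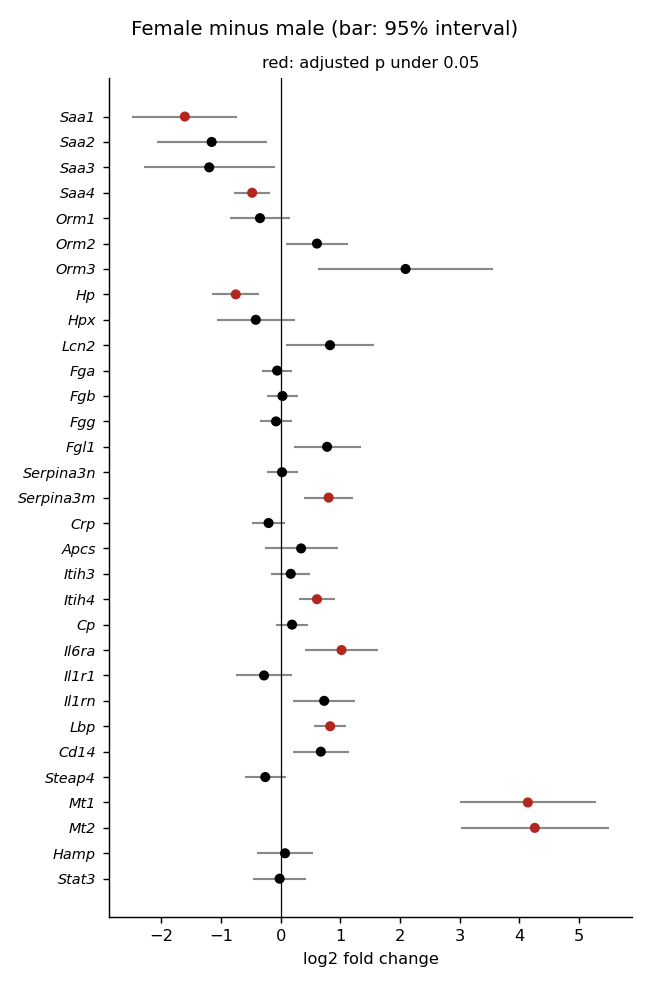
Log2 fold change of each of the 31 members in female against male livers over all 3 groups, with points for the edgeR estimate, bars for the 95% interval and red points for the 9 members with an adjusted p under 0.05. Mt1 (4.15) and Mt2 (4.26) lie far to the right of the others, and Saa1 (-1.61) lies farthest to the left.

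**Figure D4:**
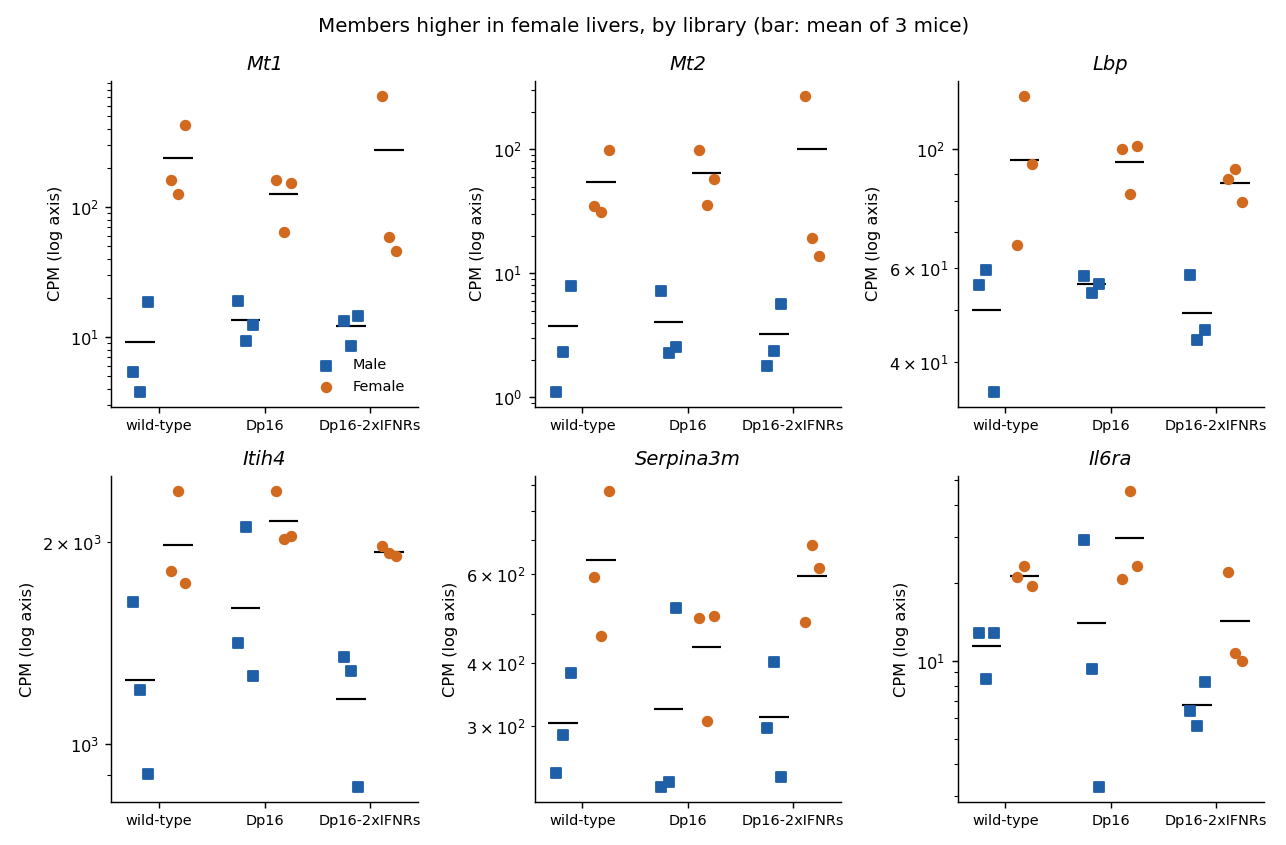
CPM on a log axis in each liver, by genotype and sex, for the 6 members higher in female livers; each point is a liver, and each short bar is the mean of 3. Every female lies above every male for Mt1, Mt2 and Lbp, while the sexes overlap for Itih4, Serpina3m and Il6ra.

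Within the sexes, no serum amyloid gene passed the edgeR test between genotypes in males alone or in females alone, and the values of single livers are given here. Saa1 measured 42.7, 45.1 and 78.2 CPM in wild-type males, 78.3, 133 and 264 CPM in Dp16 males and 117, 229.6 and 447 CPM in Dp16-2xIFNRs males. In females it measured 48.1, 68.2 and 71.8 CPM in wild-type, 20.8, 32.4 and 42.8 CPM in Dp16 and 26.6, 51.6 and 58.0 CPM in Dp16-2xIFNRs livers. Males of both other groups lay above every wild-type male, and Dp16 females lay below every wild-type female. The margin in Dp16 males was narrow (lowest Dp16 male 78.25 CPM, highest wild-type male 78.20 CPM). These orders of 3 against 3 livers were described after the values were seen. The share of all genes with such an order was not computed.

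Saa2 and Saa3, the latter made outside hepatocytes too, had the same order of male means: 26.2 ± 17.0, 59.1 ± 38.6 and 118 ± 87.1 CPM for Saa2 and 3.33 ± 0.8703, 12.8 ± 9.91 and 16.1 ± 9.76 CPM for Saa3 in wild-type, Dp16 and Dp16-2xIFNRs males (SD, n = 3). The female means were 35.8 ± 4.07, 22.7 ± 8.71 and 21.2 ± 7.90 CPM for Saa2 and 5.80 ± 2.70, 2.61 ± 1.92 and 4.31 ± 1.60 CPM for Saa3. In wild-type livers the female means were thus above the male means, and in both other groups below. Saa4 had another order: among males alone its log2 difference from wild-type was -0.50 in Dp16 and -0.39 in Dp16-2xIFNRs, and its interactions with sex were 0.48 and 0.20.

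The difference of the genotype effect between the sexes was tested as an interaction (female effect less male effect), and 0 of 31 members and 0 of 15208 genes passed in any of the 3 comparisons in edgeR. limma-voom called 1 gene, no member, in each comparison against wild-type. At an unadjusted p under 0.05 in edgeR, Dp16 against wild-type held 8 members (Saa1, Saa2, Saa3, Hp, Hpx, Fgg, Fgl1 and Apcs), against 7.88% of all genes; Dp16-2xIFNRs against wild-type held 5 (Saa1, Saa2, Saa3, Lcn2 and Fgl1), against 2.24%; and Dp16-2xIFNRs against Dp16 held 2 (Hpx and Fgg), against 3.33%. Each of these interactions against wild-type was below 0, and these members are named after their values were seen. Both comparisons against wild-type share the wild-type livers.

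For Saa1 the interaction was -2.48 in Dp16 (edgeR unadjusted p = 0.0019, adjusted p = 0.532) and -2.72 in Dp16-2xIFNRs (unadjusted p = 0.000898, adjusted p = 0.999994) on the log2 scale. Fgl1, a liver-secreted relative of fibrinogen, had the smallest p: -2.04 in Dp16 (edgeR unadjusted p = 0.000149, adjusted p = 0.378) and -1.58 in Dp16-2xIFNRs. It measured 96.3, 132 and 152 CPM in wild-type males, 415, 547 and 561 CPM in wild-type females, 248, 289 and 573 CPM in Dp16 males and 273, 377 and 429 CPM in Dp16 females. Wild-type males lay below all other livers, an order whose share over all genes was likewise not computed, and the sexes overlapped in Dp16.

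Without Dp16 libraries 4 and 5, the Dp16 interactions were smaller: -1.66 for Saa1, -0.93 for Saa2, -2.13 for Saa3, -0.63 for Hp, -1.14 for Hpx, -0.59 for Fgg, -1.41 for Fgl1 and -0.74 for Apcs, and the unadjusted p stayed under 0.05 for Saa1, Saa3, Hpx, Fgg and Fgl1. Dp16 library 4 held the highest Hp (5811 CPM) and Hpx (16463 CPM) of all 18 livers, and Dp16 library 5 the lowest (1068 and 1974 CPM). The part of these libraries in the result beyond those values was not tested.

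**Figure D5:**
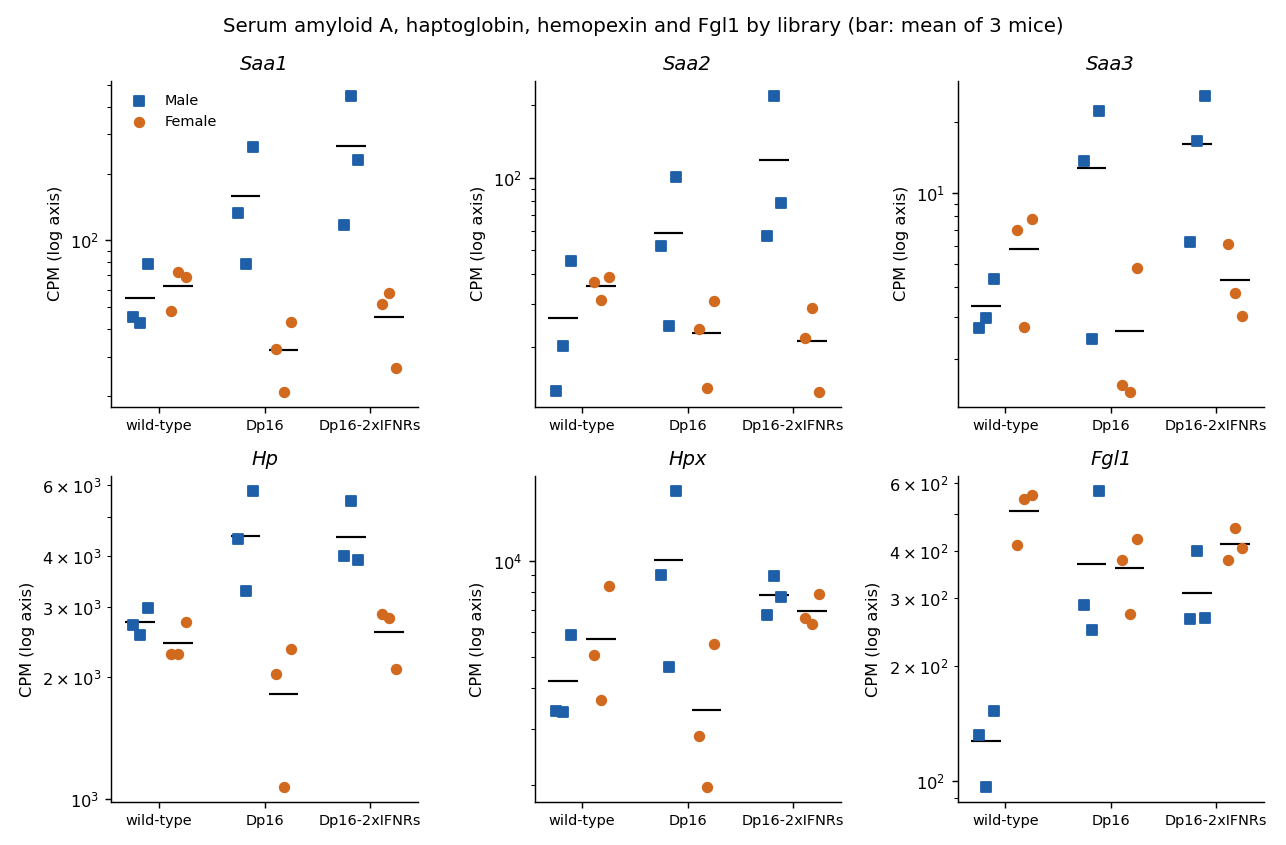
CPM on a log axis of Saa1, Saa2, Saa3, Hp, Hpx and Fgl1 in each liver, by genotype and sex; each point is a liver, and each short bar is the mean of 3. For Saa1, males of the Dp16 group (78.3 to 264 CPM) and of the Dp16-2xIFNRs group (117 to 447 CPM) lie above all wild-type males (42.7 to 78.2 CPM). The margin is narrow in Dp16, the share of all genes with such an order was not computed, and no interaction passed the test.

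Some members varied together from liver to liver. In 23 correlations of log2 CPM computed as a family, chosen after the values were seen, Saa1 and Saa2 had Pearson r = 0.964 and Spearman rho = 0.95 in the 9 males (permutation p = 6e-05 and 0.00038, adjusted p = 0.00023 and 0.00175), and r = 0.937 without the 2 libraries farthest from the median. In the 9 females r was 0.843 and rho 0.717 (permutation p = 0.00541 and 0.0366, adjusted p = 0.00957 and 0.062). Without the 2 farthest, which also narrows the range of values, r in females was 0.477, and this drop was not tested. The full upstream windows of the 2 genes are nearly the same, and how reads shared by the 2 genes were counted is not known here.

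Hp and Saa1, on different chromosomes, had r = 0.93 and rho = 0.933 in males (permutation p = 0.00068 and 0.00076, adjusted p = 0.00156 and 0.00253; r = 0.919 without the 2 farthest) and r = 0.799 and rho = 0.65 in females (permutation p = 0.0036 and 0.0663, adjusted p = 0.0069 and 0.0896; r = 0.725 without them). Hp and Hpx had r = 0.937 and rho = 0.95 in males (permutation p = 0.00015 and 0.00035, adjusted p = 0.000431 and 0.00175; r = 0.888 without the 2 farthest) and r = 0.803 and rho = 0.667 in females (permutation p = 0.00757 and 0.0592, adjusted p = 0.0124 and 0.0852; r = 0.543 without them). Mt1 and Mt2 had r = 0.92 and rho = 0.833 in females (permutation p = 0.00041 and 0.00804, adjusted p = 0.00105 and 0.0185; r = 0.79 without the 2 farthest) and r = 0.725 and rho = 0.717 in males (permutation p = 0.0283 and 0.0377, adjusted p = 0.0383 and 0.062; r = 0.802 without them). Both sexes span all 3 genotypes, so these relations hold differences between groups as well as between livers.

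The 3 fibrinogen chains are assembled in equal numbers in the protein. Fga and Fgb had r = 0.993 and rho = 0.933 in males (permutation p = 6e-05 and 0.00077, adjusted p = 0.00023 and 0.00253; r = 0.971 without the 2 farthest libraries) and r = 0.776 and rho = 0.8 in females (permutation p = 0.0142 for both, adjusted p = 0.0204 and 0.0272; r = 0.501 without them). Fga and Fgg had r = 0.675 and rho = 0.517 in males (permutation p = 0.0437 and 0.161, adjusted p = 0.0503 and 0.186; r = 0.422 without the 2 farthest) and r = -0.243 and rho = -0.283 in females (permutation p = 0.527 and 0.462, adjusted p = 0.527 and 0.483). Fgb and Fgg had r = 0.699 and rho = 0.633 in males (permutation p = 0.0345 and 0.0752, adjusted p = 0.0418 and 0.0961; r = 0.49 without the 2 farthest) and r = 0.341 and rho = 0.2 in females (permutation p = 0.373 and 0.611, adjusted p = 0.39 and 0.611). Whether these correlations differ was not tested.

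Genes that carry the signal to these members were read from fixed lists. Of 18 tested genes of interleukin 6 and STAT3 signaling, 0 passed in any genotype comparison or between sexes in edgeR, and 1, 2 and 1 had an unadjusted p under 0.05 in Dp16 against wild-type, Dp16-2xIFNRs against wild-type and Dp16-2xIFNRs against Dp16 (4.87%, 8.66% and 9.32% of all genes). Osmr, the oncostatin M receptor, measured 1.82 ± 0.445, 3.41 ± 1.02 and 2.30 ± 0.642 CPM in wild-type, Dp16 and Dp16-2xIFNRs livers (SD, n = 6; log2 0.91 in Dp16, SE 0.264, edgeR adjusted p = 0.426), and Bcl3 25.2 ± 7.24, 19.0 ± 4.35 and 20.1 ± 3.23 CPM. The cytokine gene Il6 itself had 0 to 13 counts per library.

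Of 19 tested genes of interleukin 1 and NF-kB signaling, 0 passed by genotype in edgeR. In the same order, 2, 2 and 1 had an unadjusted p under 0.05 (4.87%, 8.66% and 9.32% of all genes). Irak2, a kinase below the interleukin 1 receptor, measured 15.7 ± 3.14, 20.8 ± 3.45 and 22.9 ± 6.19 CPM, and Il1a 3.53 ± 1.31, 1.91 ± 1.15 and 2.82 ± 0.695 CPM. Il1rap, the accessory chain that pairs with Il1r1, fell in females (log2 -0.90, SE 0.184, edgeR adjusted p = 0.00379).

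Of 12 negative acute phase genes, 0 passed by genotype in edgeR. In the same order, 0, 0 and 1 had an unadjusted p under 0.05 (4.87%, 8.66% and 9.32% of all genes). Above 0 lay 2 in Dp16 against wild-type (median log2 -0.09, with 51.4% of all genes above 0). It was 11 in Dp16-2xIFNRs against wild-type (median 0.17, 47.4% of all genes) and all 12 in Dp16-2xIFNRs against Dp16 (median 0.23, 48.1% of all genes). Albumin and Serpina6, which carries corticosteroids, rose in females by 0.46 (SE 0.118, edgeR adjusted p = 0.0204) and 1.49 (SE 0.204, edgeR adjusted p = 5.32e-05) on the log2 scale.

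Of 17 genes of iron and haem handling, 0 passed by genotype in edgeR. In the same order, 0, 3 and 2 had an unadjusted p under 0.05 (4.87%, 8.66% and 9.32% of all genes). Hamp2, the neighbour and near copy of Hamp, was higher in females (log2 5.81, SE 0.3595, edgeR adjusted p = 8.61e-10), while Hamp ran from 953 to 3015 CPM in males and from 845 to 3132 CPM in females (log2 0.07). Tfrc, the transferrin receptor, was lower in females (log2 -1.54, SE 0.341, edgeR adjusted p = 0.00741).

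Of 13 genes that respond to zinc or glucocorticoid, 0 passed by genotype in edgeR. In the same order, 4, 2 and 1 had an unadjusted p under 0.05 (4.87%, 8.66% and 9.32% of all genes). Above 0 lay 10 in Dp16 against wild-type (median 0.31, with 51.4% of all genes above 0). Only 1 did in Dp16-2xIFNRs against Dp16 (median -0.27, with 48.1% of all genes above 0). Tat, a glucocorticoid-induced liver enzyme, measured 1021 ± 222, 1660.2 ± 522 and 1440.4 ± 269 CPM in the 3 groups, and Zbtb16 4.09 ± 2.48, 14.5 ± 14.7 and 3.10 ± 1.37 CPM. Slc39a4, a zinc importer, and Fkbp5, a glucocorticoid target, rose in females by 0.99 (SE 0.157, edgeR adjusted p = 0.000301) and 1.57 (SE 0.242, edgeR adjusted p = 0.000208). These were the called genes of the list between sexes (2 of 13, against 6.56% of all genes). In the list 7 of 13 lay above 0 in females (median 0.15), against 52.4% of all genes.

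Markers of other cells in the liver were read from fixed lists. The summed level of 13 neutrophil markers ran from 3.24 to 10.6 CPM in wild-type, from 8.44 to 22.9 in Dp16 and from 7.49 to 22.7 in Dp16-2xIFNRs livers, with 0 of 11 tested genes called and 5 at an unadjusted p under 0.05 in each comparison against wild-type (4.87% and 8.66% of all genes), and a median log2 difference of 1.40 in Dp16 and 1.46 in Dp16-2xIFNRs; Ly6g, a defining marker, was at 0 in wild-type and at most 0.351 CPM elsewhere. Among Kupffer cell markers, Fcna fell in Dp16-2xIFNRs against wild-type livers (log2 -0.84, SE 0.127, edgeR adjusted p = 0.00803), while Clec4f measured 106 ± 24.9 and 87.0 ± 8.11 CPM. Fcna was the 1 called gene of 10 tested, against 0.0986% of all genes. Of 6 endothelial and 5 stellate cell markers, 0 were called between genotypes in edgeR. Their summed levels overlapped between groups, from 118 to 194, 146 to 249 and 143 to 194 CPM for endothelial and from 119 to 194, 158 to 236 and 160.2 to 219.6 CPM for stellate cell markers in wild-type, Dp16 and Dp16-2xIFNRs. The part of these cells in the levels of Lcn2, Cd14, Saa3 or Il1rn was not tested. Of 5 fat markers Lep was at 0 in all 18 libraries, and the sum ran from 1239.9 to 4217 CPM, nearly all of it from Car3, which hepatocytes express too (2549 ± 1179, 2000.2 ± 692 and 2176 ± 480.5 CPM in the 3 groups). Of 5 markers of exocrine pancreas Pnlip was at 0, and the sum ran from 4.02 to 41.1 CPM, nearly all from Cela1.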

How the data were processed

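Polyadenylated RNA from 18 mouse livers was sequenced in paired ends after a strand-specific library preparation, per the labels' protocols. The deposited counts are whole numbers of reads per gene made by the authors, who used HTSeq 0.6.1 together with HISAT2 2.1.0, SAMtools 1.5, FastQC 0.11.5 and bcl2fastq on build GRCm38, per the submitters' processing notes. The deposited RPKM values are those counts after the authors divided them by gene length and library sum, as tested on the files. The strand setting and the handling of shared reads were not stated.

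Counts were filtered by group with filterByExpr, scaled with TMM and fitted in edgeR 4.0.16 (R 4.3.3; quasi-likelihood, robust) over all 18 libraries with terms for group and sex. A gene was called at a p under 0.05 after Benjamini-Hochberg adjustment over 15208 genes; log2 CPM used a prior count of 2. The script was tested on simulated data. The interaction of group and sex was a further edgeR fit. Alternatives were DESeq2 1.42.0, limma-voom (limma 3.58.1), limma on log2 RPKM with 0.1 or 1 added, other size factors and filters, other covariates, each sex alone, libraries left out, and, chosen after seeing the data, the full number in the description, which some mice share across groups, as a fixed or random effect. Positions came from GENCODE M21 (GRCm38).

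The members, 12 further gene lists and the alternatives were chosen with earlier results of these data known. Tests are given for up to 6 members per genotype comparison with the smallest p, for up to 8 members called between the sexes, and, from each list, for up to 3 called genes or as values for the 2 genes with the smallest p in Dp16 against wild-type. Of the iron list, 1 symbol was not matched. Correlations used two-sided permutation tests of log2 CPM.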

Additional observations from a re-analysis of the deposited data

Results flagged for a closer look

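Of 96 sets of 6 livers (the level of each of 31 members, and the share of all counts taken by the members, in each of 3 groups), 12 held a library whose gap to its nearest neighbour was large for the range of the set. The cutoff flags about 1 in 20 sets of normally distributed values. These sets hold values that are not on a log scale, from both sexes, so that rate need not hold here. All 12 flagged values were the highest of their set. The metallothioneins gave 4 of them: Dp16-2xIFNRs library 2, a female, at 719.7 CPM of Mt1 (others 8.52 to 58.6) and 269.6 CPM of Mt2 (others 1.78 to 19.3), and wild-type library 6, also a female, at 429 CPM of Mt1 (others 3.79 to 162) and 98.3 CPM of Mt2 (others 1.11 to 35.0). These sets hold both sexes, which differ in level for Mt1 and Mt2.

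Among secreted proteins, Saa2 stood at 218 CPM in Dp16-2xIFNRs library 3 (others 13.0 to 78.6), Orm1 at 2139 CPM in Dp16 library 4 (others 564 to 1076) and Serpina3n at 514 CPM in wild-type library 4 (others 304 to 347). Fga stood at 6957 CPM in Dp16 library 3 (others 4558 to 5195) and at 5315 CPM in Dp16-2xIFNRs library 1 (others 4435 to 4763). Among receptors and membrane proteins, Il6ra stood at 21.9 CPM in Dp16-2xIFNRs library 2 (others 5.61 to 10.7), Il1r1 at 13.7 CPM in Dp16-2xIFNRs library 5 (others 7.37 to 9.09) and Steap4 at 144 CPM in wild-type library 5 (others 58.5 to 88.1).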

How the results depend on the processing

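The count of called members stayed at 0 in each genotype comparison under all 36 alternatives, and between the sexes it ran from 6 to 13 (9 as reported). The count of called genes over the whole table moved more. In Dp16 against wild-type (6) it was 72 with DESeq2, 11 with limma-voom and with limma on log2 RPKM with 0.1 or 1 added, 3 without the sex term, 2 with 1 added and no filter, 1 without Dp16 libraries 4 and 5 and with only the groups compared, 0 in males or females alone, and 1 to 9 with 1 library left out (lowest without wild-type 1 or 6 or Dp16 2, highest without Dp16 4). In Dp16-2xIFNRs against wild-type (15) it was 127 with DESeq2, 7 without the sex term, 23 with the leading digits of each sample's description number as a term, 38 and 27 with 0.1 and 1 added to RPKM, 64 without Dp16 libraries 4 and 5, 43 with only the groups compared, 0 in males or females alone, and 4 to 48 with 1 library left out (lowest without wild-type 1, 2 or 5, highest without Dp16 4). DESeq2 called 7 genes in Dp16-2xIFNRs against Dp16 (0) and 1535 between the sexes (998), and limma-voom called 1 gene in the interaction for Dp16 and 1 for Dp16-2xIFNRs (0 and 0). The cause was not tested. The median member difference in Dp16 against wild-type was 0.41 in males alone and -0.16 in females alone, where Fgg (-0.16) and Cd14 (-0.040) turned sign, and in Dp16-2xIFNRs against wild-type it was -0.11 in females alone. Of the members called between the sexes, Saa1 and Il6ra lost the call without the filter on low counts, as did Saa4, which also lost it with both RPKM fits.

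Same-numbered libraries of different groups did not deviate together (18 pairs, r from -0.45 to 0.34, 8 over 0.1), so the sample numbers were not taken as pairs. The number in the description is a different label, whose meaning the labels do not give: 11 mice of both sexes share 5 such numbers, each across groups and within 1 sex. The 7 pairs of libraries that share one had deviations from the means of group and sex with r from 0.014 to 0.35 (median 0.07, 3 over 0.1), against -0.39 to 0.35 (median -0.02) in 47 other pairs of 1 sex. Chosen after seeing the data, a term for the full number left 0, 0 and 3 called genes in the 3 genotype comparisons, and the full number as a random effect in limma-voom (estimated correlation 0.41) gave 15, 66 and 1. No member was called by genotype in either. With the random effect 8 members stayed called between the sexes, all but Saa4 (adjusted p = 0.152). With the replicate block, Serpina3m (log2 0.57, edgeR adjusted p = 0.0896) and Saa4 (log2 -0.48, adjusted p = 0.0714) lost their calls between the sexes. With 6 livers a group and a median biological coefficient of variation of 0.339, intervals of about 1 log2 unit or more for Saa1, Mt1 and Il6ra limit what a genotype comparison can show.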
